A study of Homo sapiens with 6 samples.

Results

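The genes described here were 42 enzymes and regulators chosen by name: the enzymes of glycolysis and of the fate of pyruvate, 3 enzymes of the pentose phosphate pathway, the subunits of the hypoxia-inducible factors (HIF) with their prolyl hydroxylases, and known target genes of HIF. A total of 40 of them had a row among the 12308 different rows of the table, and CA9 and ANKRD37 had none. A gene was tested where 3 or more of the 6 libraries had a value of 1 or more, which held for 38 of them and not for LDHB and BNIP3. RNA-seq was performed on total RNA of the ovarian cancer line OVCAR5 in 3 cultures and of OVCAR5R in 3 cultures. OVCAR5R was derived from OVCAR5 by growth in rising concentrations of the checkpoint kinase 1 inhibitor prexasertib (Prex) up to 3 µM for 3 to 4 months. It was kept at 2 µM Prex and then grown off the drug for 4 or more days before use. Both lines grew in RPMI1640 medium with serum, sodium pyruvate, and bovine insulin. The resistant state is thus represented by 1 derived line, and whether it is a single clone is not stated. The replicates were labelled as separate samples of a line, and nothing in the labels says when each was grown.

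Glycolysis splits glucose into pyruvate and yields ATP without oxygen. Hexokinase traps glucose in the cell, phosphofructokinase commits it to the pathway, and lactate dehydrogenase turns pyruvate into lactate. The pentose phosphate pathway branches off glucose 6-phosphate. Its oxidative arm makes NADPH, and its non-oxidative arm, made of transketolase and transaldolase, exchanges sugars with glycolysis and feeds ribose 5-phosphate into nucleotide synthesis. HIF is a pair of an oxygen-labile alpha subunit and the stable subunit ARNT. With oxygen present, prolyl hydroxylases of the EGLN family mark the alpha subunit for destruction by VHL. Without it, HIF binds the core motifs ACGTG and GCGTG and turns on glycolytic enzymes, the angiogenic factor VEGFA, and other targets. The alpha subunit is controlled mostly through its protein, which RNA-seq does not measure.

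The values were normalized signals, not logs, with totals from 937274 to 1038240 in the 6 libraries. From the smallest step between low values, taken as 1 estimated read, depth in units of 1e6 estimated reads was 35.8 to 41.3 for OVCAR5 and 50.3 to 55.1 for OVCAR5R. OVCAR5 replicate 2 stood apart from the rest. Its log2 signal over the 11766 genes tested correlated with OVCAR5 replicates 1 and 3 at Pearson r of 0.898 and 0.883, while those 2 libraries correlated with each other at 0.955. Epithelial markers set it apart as well. The 7 of 9 epithelial markers with a row summed to a signal of 17319.7 in OVCAR5 replicate 2, 2475.2 and 2397.7 in OVCAR5 replicates 1 and 3, and 3610.6 to 4821.1 in OVCAR5R. KRT19, a keratin of simple epithelia, had a signal of 1341 in that library and at most 10.7 in any other. Of 10 stromal and leukocyte markers, 4 had a row, and these summed to between 61.4 and 84.8 in every library, most of it CD68. COL1A1 and CD14, at 15.2 and 20.2, were highest in OVCAR5 replicate 2, against 1.29 to 9.03 and 2.02 to 11.9 in the other libraries. CD68 and PDGFRB went the other way. At 40.67 and 0.1448 they were lowest in OVCAR5 replicate 2, against 44.65 to 72.77 and 0.4815 to 1.9 in the other libraries. Since OVCAR5 replicate 2 stood apart, values that rest on it are also given without it, and why it stood apart was not tested.

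The promoters of 4 genes that the results turn on are shown for the HIF core motif. Each sequence holds the 250 bases before the annotated start, from the RefSeq promoter table on GRCh38.p14, with ACGTG or GCGTG on either strand in capitals. Of the 3 listed pentose phosphate genes, PGD and TKT are the 2 whose libraries did not overlap. EGLN3 is the oxygen-regulated prolyl hydroxylase, and ADM was the HIF target with the opposite direction to VEGFA.
PGD (chr1:10398814-10399063, + strand): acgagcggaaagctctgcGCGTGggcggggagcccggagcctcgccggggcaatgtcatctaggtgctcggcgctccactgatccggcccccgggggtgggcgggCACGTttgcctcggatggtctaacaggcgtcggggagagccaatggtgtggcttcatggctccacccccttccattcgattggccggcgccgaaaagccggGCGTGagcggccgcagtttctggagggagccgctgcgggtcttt
TKT (chr3:53256023-53256272, - strand): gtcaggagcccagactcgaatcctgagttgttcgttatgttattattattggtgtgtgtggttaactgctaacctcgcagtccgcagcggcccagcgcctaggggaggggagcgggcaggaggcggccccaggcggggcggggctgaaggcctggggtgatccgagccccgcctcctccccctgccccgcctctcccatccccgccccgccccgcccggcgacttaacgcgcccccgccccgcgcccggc
EGLN3 (chr14:33951075-33951324, - strand): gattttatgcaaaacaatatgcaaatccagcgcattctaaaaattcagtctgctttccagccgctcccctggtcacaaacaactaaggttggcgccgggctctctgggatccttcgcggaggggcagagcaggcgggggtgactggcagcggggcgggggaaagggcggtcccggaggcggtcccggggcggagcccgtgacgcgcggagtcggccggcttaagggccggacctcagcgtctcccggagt
ADM (chr11:10304823-10305072, + strand): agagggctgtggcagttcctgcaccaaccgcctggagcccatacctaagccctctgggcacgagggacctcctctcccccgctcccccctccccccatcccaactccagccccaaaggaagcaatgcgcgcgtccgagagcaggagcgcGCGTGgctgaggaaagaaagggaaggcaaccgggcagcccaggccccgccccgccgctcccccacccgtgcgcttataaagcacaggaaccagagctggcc
PGD held the motif 3 times, the nearest 44 bases before the start, and ADM held it 1 time, 101 bases before the start. TKT and EGLN3 held none in this window. At the first listed start of each gene, the motif was in 23 of 38 promoters of the listed genes found in the table (60.5%), in 58.6% of 9413 promoters of genes with a row, and in 43.1% of all 27305. PFKFB2, VEGFA, BNIP3L, and NDRG1 had no entry. These matches are letters in a short window and say nothing of binding.

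No listed gene passed the test at the level of the whole table. Of 11766 genes, 14 (0.119%) had an adjusted p under 0.05 by limma, and 0 of the 38 listed genes did, with the lowest adjusted p at 0.298 for VEGFA. At an unadjusted p under 0.05, 7 listed genes (18.4%) were lower in OVCAR5R, where 6.25% of all genes were, and 1 (2.63%) was higher, where 4.14% of all genes were, 10.4% of all genes in either direction. The 7 were HK2, PFKFB3, ALDOA, TKT, PGD, EGLN3, and VEGFA, and the 1 was ADM. The 3 libraries of each line did not overlap for 6 listed genes that were lower and 1 that was higher, 18.4% together, against 8.18% of all genes lower, 8.4% higher, and 16.6% together. So the share without overlap was close to that of all genes only with both directions together. In the lower direction, 6 of the 38 had no overlap, a larger share than the 8.18% of all genes. In the higher direction 1 of the 38 did, a smaller share than the 8.4%. The share with a low unadjusted p in the lower direction was also above that of all genes. By sign alone, 26 of the 38 log2 fold changes were below 0 (68.4%, against 50.8% of all genes), and their median was -0.21, against -0.01 for all genes. The 71 other genes tested from the same pathways did not share this lean. Of these, 52.1% were below 0, with a median of -0.0026. Without OVCAR5 replicate 2, the listed genes with a low unadjusted p were 3 lower (PGD, VEGFA, and PFKFB4, 7.89%, against 6.43% of all genes) and 0 higher (4.33% of all genes). None of the listed genes had an adjusted p under 0.05 (0.205% of all genes), while their median stayed at -0.21. The lean by sign was smaller without OVCAR5 replicate 1. There PGM1, PDK1, NDRG1, KDM3A, and MXI1 turned above 0, and no listed gene turned below 0. The median was then -0.0018 for the HIF target genes and 0.0097 for the lactate and pyruvate genes, but -0.74 for the pentose phosphate genes. The count of 7 also dropped to 3 without OVCAR5R replicate 1 (4.54% of all genes lower) and without OVCAR5R replicate 3 (5.14%). A lower signal can be less RNA per cell or fewer cells that hold the transcript, which bulk RNA cannot tell apart.

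**Figure D1:**
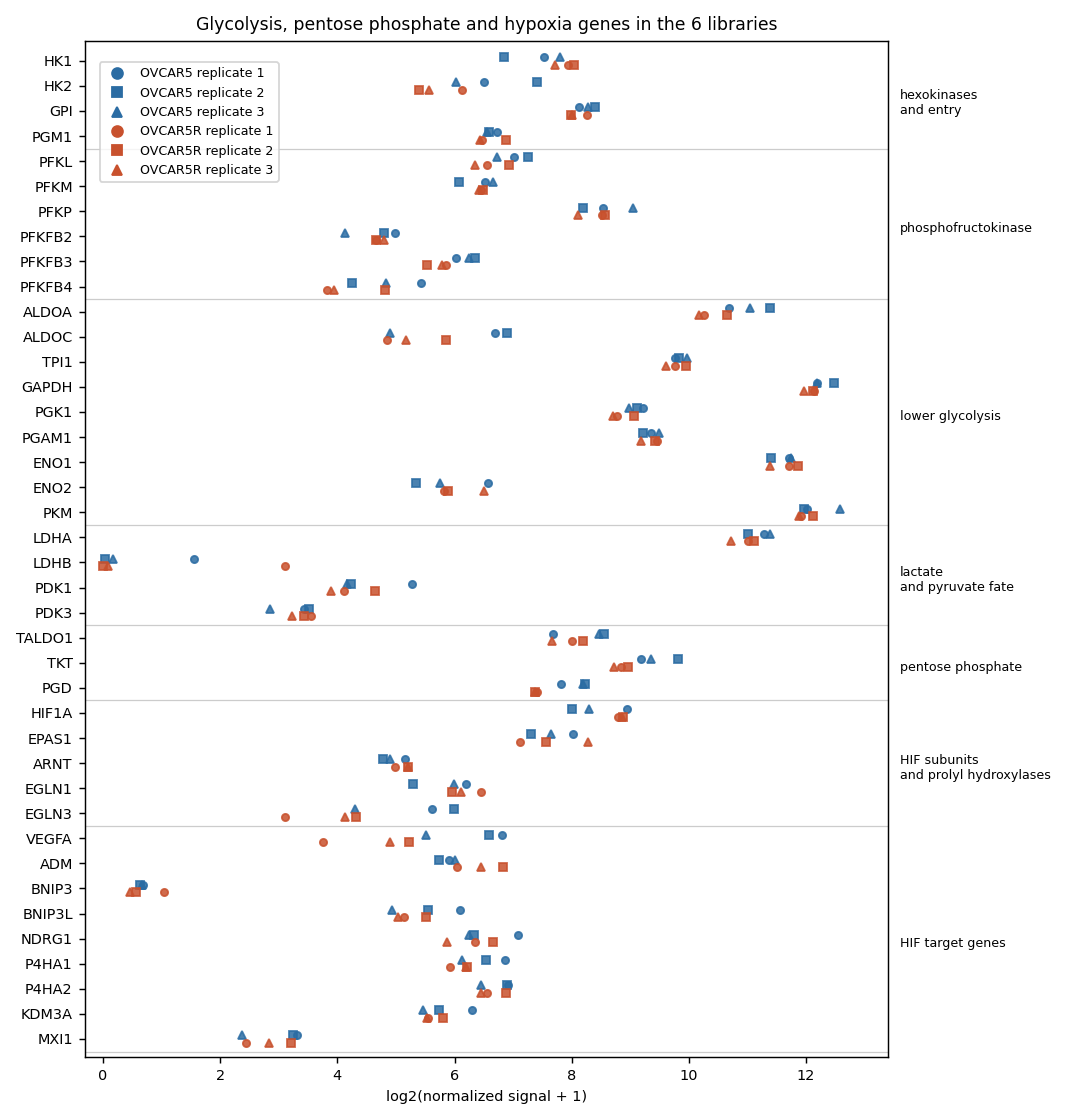
Signal of the 40 listed genes with a row in each of the 6 libraries, as log2(normalized signal + 1) on the horizontal axis, grouped by role; blue marks are OVCAR5 and orange marks OVCAR5R, and the shape gives the replicate number. The lines overlap for most genes, and GAPDH, PKM, and ENO1 lie at the top of the range. BNIP3 lies at the low end, as does LDHB except in replicate 1 of each line, at signals of 1.95 in OVCAR5 and 7.58 in OVCAR5R.

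Among the listed genes, the most abundant transcripts in both lines were 4 enzymes of lower glycolysis and lactate dehydrogenase A. Per kilobase of exon, the mean signal in OVCAR5 was highest for GAPDH at 2250 ± 276, followed by PKM at 1430 ± 351, ENO1 at 1310 ± 167, ALDOA at 892 ± 218, and LDHA at 812 ± 104 (SD, n = 3). PKM and ENO1, and likewise ALDOA and LDHA, differed by less than their spread. The hexokinases were far lower, HK1 at 37.2 ± 11.9 and HK2 at 18.1 ± 9.12 per kilobase. In OVCAR5R the leading 5 were GAPDH at 1940 ± 133, ENO1 at 1350 ± 214, PKM at 1210 ± 106, LDHA at 670 ± 89.5, and ALDOA at 554 ± 103 per kilobase. PKM and ENO1, and ALDOA and LDHA, were in exchanged places. Since both pairs were within their spread in OVCAR5, and PKM and ENO1 also in OVCAR5R, this is not a clear change of order. GAPDH has 62 named pseudogenes in GENCODE and PGAM1 has 13, and how the counting treated reads shared with such copies is not given in the sources used here.

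Of the 4 genes of the hexokinase and entry role, HK1 had a higher and HK2 a lower mean in OVCAR5R, all with overlapping libraries. HK1, the housekeeping hexokinase on chromosome 10, had a signal of 184, 114, and 223 in the 3 OVCAR5 libraries and 244, 262, and 209 in OVCAR5R. OVCAR5R was higher on average, but its lowest library lay below the highest of OVCAR5, and the log2 fold change was 0.50 (SE 0.27, adjusted p = 0.560), and 0.23 without OVCAR5 replicate 2. HK2, the inducible hexokinase that is often raised in tumors, on chromosome 2, read 89.7, 168, and 64.5 in OVCAR5 and 68.7, 41.1, and 46.1 in OVCAR5R. Its highest value was in OVCAR5 replicate 2, and OVCAR5R replicate 1 lay above OVCAR5 replicate 3. The log2 fold change was -0.95 (SE 0.37, adjusted p = 0.427), and -0.58 without OVCAR5 replicate 2. Within a library, the log2 ratio of HK2 to HK1 was -1.03, 0.56, and -1.77 in OVCAR5 and -1.81, -2.65, and -2.15 in OVCAR5R. All 3 OVCAR5R ratios were below all 3 OVCAR5 ratios, a difference in means of -1.46, and -0.80 without OVCAR5 replicate 2, whose ratio was far above those of its line. The exact two-sided permutation test gave p = 0.1, the smallest that 3 against 3 libraries allow, and an adjusted p of 0.72 over the 12 pairs of related enzymes compared. This was the only one of the 12 pairs with no overlap, and the adjusted p of the other 11 was 0.72 to 0.8. GPI, the glucose 6-phosphate isomerase, and PGM1, which links glycogen to glycolysis, had log2 fold changes of -0.19 and -0.03.

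The phosphofructokinase group was slightly lower by median, at a log2 fold change of -0.29 over 6 genes. PFKFB3 makes fructose 2,6-bisphosphate, the strongest activator of phosphofructokinase. Its signal was 64.0, 80.3, and 74.8 in OVCAR5 and 56.7, 45.1, and 54.1 in OVCAR5R, with no overlap, and the log2 fold change was -0.48 (SE 0.20, adjusted p = 0.455), and -0.41 without OVCAR5 replicate 2. PFKFB4, a related bifunctional enzyme that HIF also induces, had a signal of 42.0, 17.9, and 27.3 in OVCAR5 and 13.1, 27.2, and 14.4 in OVCAR5R. OVCAR5R replicate 2 was as high as OVCAR5 replicate 3, and the log2 fold change was -0.64 (SE 0.38, adjusted p = 0.594), and -0.93 without OVCAR5 replicate 2. PFKFB2, the isoform known from heart, was at 30.6, 26.7, and 16.5 in OVCAR5 and 24.2, 24.3, and 26.7 in OVCAR5R, and its log2 fold change of 0.07 changed sign when OVCAR5 replicate 3 was left out. The 3 subunits of the enzyme itself, PFKL, PFKM, and PFKP, had log2 fold changes of -0.39, 0.04, and -0.19, each with overlapping libraries, and the sign of the last 2 changed when 1 library was left out.

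In lower glycolysis, aldolase A and GAPDH were the genes without overlap. ALDOA, the main aldolase of most tissues, on chromosome 16, was at 1637, 2684, and 2120 in OVCAR5 and 1228, 1615, and 1155 in OVCAR5R. The highest OVCAR5R library lay just below the lowest of OVCAR5, and the log2 fold change was -0.67 (SE 0.27, adjusted p = 0.442), and -0.50 without OVCAR5 replicate 2. The 89 other tested genes within 5 Mb of ALDOA had a median log2 fold change of -0.31. GAPDH, the enzyme that makes NADH in glycolysis and a common reference gene, was at 4647, 5712, and 4653 in OVCAR5 and 4524, 4449, and 3977 in OVCAR5R. Its log2 fold change was -0.21 (SE 0.24, adjusted p = 0.795), and it became 0.13 when the libraries were quantile normalized, so its direction depends on the scaling. ALDOC, an aldolase known from brain that hypoxia induces, had a signal of 102, 119, and 28.9 in OVCAR5 and 27.7, 57.0, and 34.8 in OVCAR5R. OVCAR5 replicate 3 sat with the resistant libraries, and the log2 fold change was -0.88 (SE 0.53, adjusted p = 0.598), and -0.51 without OVCAR5 replicate 2. ENO2, the neuronal enolase, read 93.7, 39.5, and 52.6 in OVCAR5 and 55.5, 58.2, and 89.5 in OVCAR5R, with a log2 fold change of 0.19 that was -0.09 without OVCAR5 replicate 2. The other 5, which were TPI1, PGK1, PGAM1, ENO1, and PKM, had log2 fold changes between -0.26 and 0.04. Over all 9 genes the median was -0.21, and 0.03 with quantile normalization, where TPI1 and PKM also turned above 0, so the direction of the group depends on the scaling as well.

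At the end of glycolysis, lactate dehydrogenase was nearly all of the A form. LDHA had a signal of 2487, 2073, and 2676 in OVCAR5 and 2070, 2207, and 1694 in OVCAR5R, a log2 fold change of -0.28 (SE 0.23, adjusted p = 0.706). LDHB, whose subunit is typical of tissues that oxidize lactate, was at 1.95, 0.0290, and 0.127 in OVCAR5 and 7.58, listed at 0, and 0.0559 in OVCAR5R. LDHB thus differed between libraries of the same line. It was at most 0.127 in replicates 2 and 3 of both lines, and highest in replicate 1 of each, at 7.58 in OVCAR5R. Why replicate 1 differed was not tested. Pyruvate dehydrogenase kinases hold pyruvate back from mitochondria. PDK1, a HIF target among them, was at 37.9, 17.8, and 17.0 in OVCAR5 and 16.3, 23.9, and 13.8 in OVCAR5R. Its log2 fold change of -0.35 (SE 0.36, adjusted p = 0.771) rested on OVCAR5 replicate 1 and was 0.01 without it. PDK3 was at 9.82, 10.4, and 6.21 in OVCAR5 and 10.8, 9.85, and 8.39 in OVCAR5R, with a log2 fold change of 0.14 (SE 0.28, adjusted p = 0.893).

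**Figure D2:**
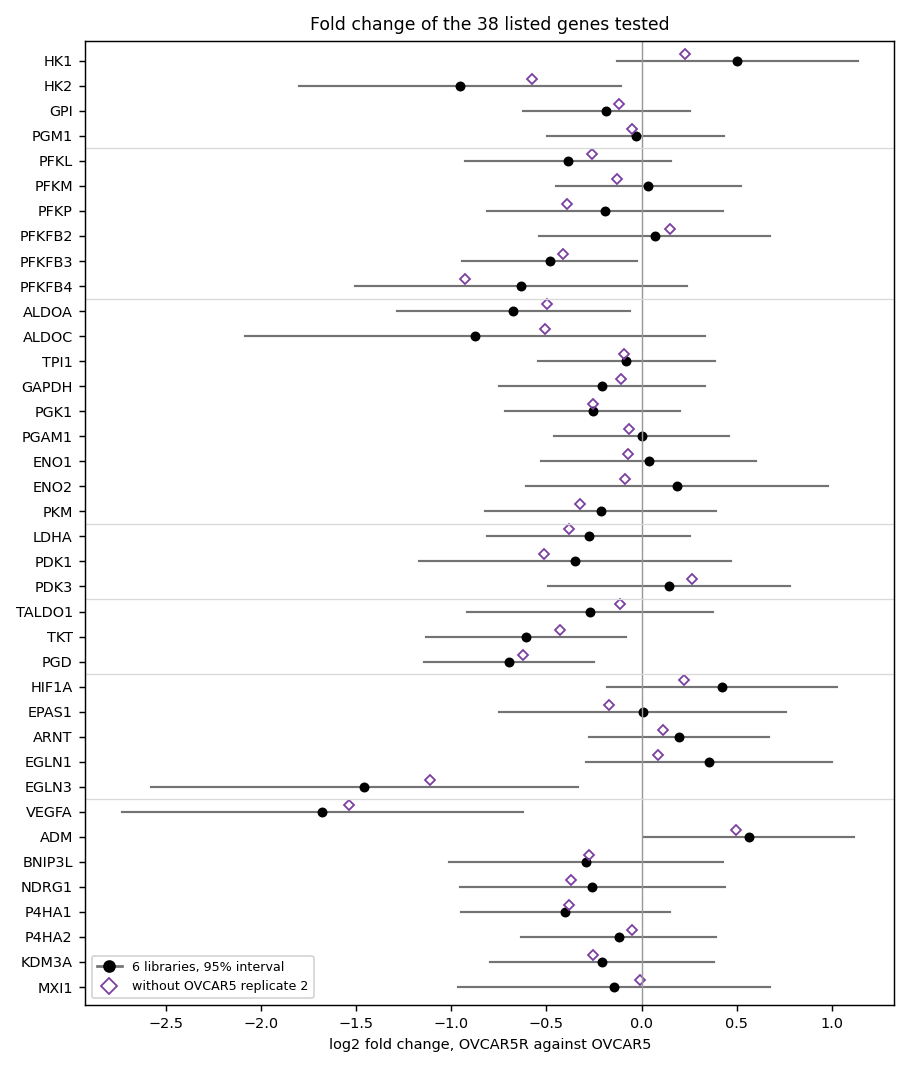
Log2 fold change of OVCAR5R against OVCAR5 for the 38 genes tested, with black points and lines for the fit of 6 libraries and its 95% interval, and open diamonds for the fit without OVCAR5 replicate 2. VEGFA at -1.68 and EGLN3 at -1.46 lie farthest to the left, ADM at 0.56 and HK1 at 0.50 farthest to the right, and most intervals include 0.

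The pentose phosphate genes were the role with the lowest median, a log2 fold change of -0.61 over 3 genes (-0.43 without OVCAR5 replicate 2), and all 3 were below 0. PGD, 6-phosphogluconate dehydrogenase, makes NADPH and ribulose 5-phosphate in the oxidative arm. Its signal was 224, 298, and 291 in OVCAR5 and 168, 164, and 165 in OVCAR5R, or 271 ± 40.7 against 166 ± 2.06 (SD, n = 3). The 3 resistant cultures were almost equal and all were below the lowest OVCAR5 culture. The log2 fold change was -0.70 (SE 0.19), with an unadjusted p of 0.00715 and an adjusted p of 0.301 by limma. Without OVCAR5 replicate 2 it was -0.62 (unadjusted p of 0.0160 by limma), and over every alternative it lay between -0.83 and -0.62. The 60 other tested genes within 5 Mb of PGD on chromosome 1 had a median log2 fold change of 0.08.

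TKT, transketolase, on chromosome 3, had a signal of 581, 900, and 654 in OVCAR5 and 459, 495, and 423 in OVCAR5R. There was no overlap, and OVCAR5 replicate 2 was the highest. The log2 fold change was -0.61 (SE 0.23, adjusted p = 0.418), and -0.43 without that library. TALDO1, transaldolase, was at 205, 374, and 351 in OVCAR5 and 257, 293, and 203 in OVCAR5R. The lines overlapped, and the log2 fold change was -0.27 (SE 0.28, adjusted p = 0.774), and -0.11 without OVCAR5 replicate 2. OVCAR5 replicate 2 was the highest OVCAR5 library for all 3 of these genes and replicate 1 the lowest.

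The other pentose phosphate and ribose genes put these values in their pathway. Of 13 such genes listed, 11 were tested and 0 had an adjusted p under 0.05, while 2 (18.2%, against 6.25% of all genes) had an unadjusted p under 0.05 in the lower direction and 2 (18.2%, against 4.14%) in the higher. Over the 11 tested, 5 log2 fold changes were below 0 and 6 above. Their median was 0.12, and 0.09 without OVCAR5 replicate 2. PGLS, the lactonase one step ahead of PGD, was at 67.1, 113, and 60.2 in OVCAR5 and 44.2, 57.0, and 39.0 in OVCAR5R, with no overlap and a log2 fold change of -0.73 (SE 0.28, adjusted p = 0.437). Without OVCAR5 replicate 2 it was -0.45. So PGLS and PGD, which act in sequence, each had all resistant libraries below all parental ones, and neither passed the adjusted test. PRPS2, which makes phosphoribosyl pyrophosphate from ribose 5-phosphate, had a signal of 32.6, 40.2, and 40.9 in OVCAR5 and 57.3, 59.7, and 61.3 in OVCAR5R, with no overlap and a log2 fold change of 0.64 (SE 0.19, adjusted p = 0.315). PRPS1, its paralog, read 51.7, 34.5, and 80.0 in OVCAR5 and 97.6, 89.5, and 81.5 in OVCAR5R, a log2 fold change of 0.76 (SE 0.30, adjusted p = 0.447) that was 0.47 without OVCAR5 replicate 2. RPE, the epimerase that leads into the non-oxidative arm, had a log2 fold change of 0.28 (SE 0.20, adjusted p = 0.655) with libraries that did not overlap, and 0.15 without OVCAR5 replicate 2.

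**Figure D3:**
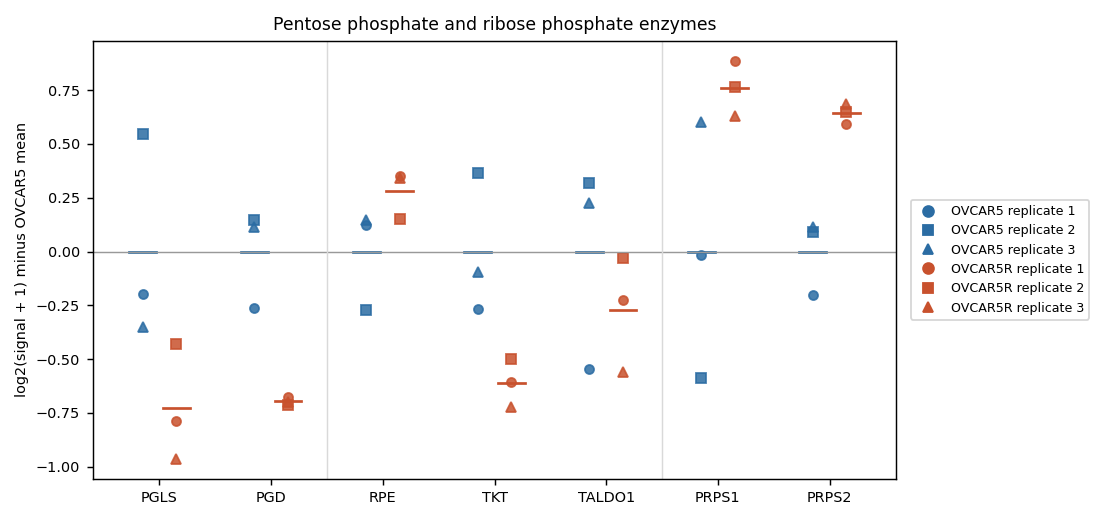
Oxidative arm enzymes (left), epimerase and non-oxidative arm enzymes (middle), and phosphoribosyl pyrophosphate synthetases (right), as log2(signal + 1) minus the OVCAR5 mean; marks are single libraries and short lines are the mean of each line. PGLS, PGD, and TKT have the OVCAR5R marks below every OVCAR5 mark, RPE, PRPS1, and PRPS2 have them above, and TALDO1 overlaps. PGLS, RPE, PRPS1, and PRPS2 were picked because their libraries did not overlap. Other pentose phosphate and ribose genes that were tested and overlapped are not shown.

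Among the HIF subunits and prolyl hydroxylases, EGLN3 was lower by mean and the rest were level or higher. HIF1A, the main oxygen-labile subunit, had a signal of 489, 257, and 313 in OVCAR5 and 439, 468, and 463 in OVCAR5R. OVCAR5 replicate 1 was above all resistant libraries, and the log2 fold change was 0.42 (SE 0.26, adjusted p = 0.610), and 0.22 without OVCAR5 replicate 2. HIF1A lies on chromosome 14, where the 40 other tested genes within 5 Mb had a median log2 fold change of 0.54. EPAS1, the alpha subunit of HIF-2, and ARNT had log2 fold changes of 0.01 and 0.20. EGLN1, the prolyl hydroxylase that sets HIF levels in normal oxygen, had one of 0.35, which was 0.08 without OVCAR5 replicate 2. EGLN3, a hydroxylase that is itself a HIF target, was at 48.2, 62.9, and 18.8 in OVCAR5 and 7.62, 19.0, and 16.5 in OVCAR5R. The lines overlapped by a narrow margin, since OVCAR5R replicate 2 lay just above OVCAR5 replicate 3. The log2 fold change was -1.46 (SE 0.49, adjusted p = 0.367), and -1.11 without OVCAR5 replicate 2. EGLN3 is on chromosome 14 too, and the 33 other tested genes within 5 Mb had a median log2 fold change of 0.51, in the opposite direction. The mean log2 ratio of EGLN3 to EGLN1 differed by -1.81 in OVCAR5R against OVCAR5, with an exact permutation p of 0.2, and by -1.20 without OVCAR5 replicate 2.

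Of the 8 HIF target genes tested, 7 had a log2 fold change below 0 and 1 above. VEGFA, which encodes the vascular endothelial growth factor, on chromosome 6, had the lowest log2 fold change of all 38 genes. Its signal was 111, 95.1, and 44.9 in OVCAR5 and 12.5, 36.3, and 28.9 in OVCAR5R, with no overlap. The log2 fold change was -1.68 (SE 0.46), with an unadjusted p of 0.00621 and an adjusted p of 0.298 by limma. It was -1.54 without OVCAR5 replicate 2 and between -2.07 and -1.24 over every alternative. ADM, which encodes the vasodilator peptide adrenomedullin, on chromosome 11, was at 58.7, 52.4, and 63.0 in OVCAR5 and 65.3, 112, and 86.7 in OVCAR5R. All resistant libraries were above all parental ones, OVCAR5R replicate 1 by little. The log2 fold change was 0.56 (SE 0.24, adjusted p = 0.470), and 0.49 without OVCAR5 replicate 2. The other 6 tested, which were the mitophagy receptor BNIP3L, NDRG1, the collagen prolyl hydroxylase subunits P4HA1 and P4HA2, the histone demethylase KDM3A, and the MYC antagonist MXI1, had overlapping libraries and log2 fold changes between -0.40 and -0.12. BNIP3, the paralog of BNIP3L, was at 0.373 to 1.06 in every library and has 39 named pseudogenes. The median over the 8 tested targets was -0.23, and -0.0018 without OVCAR5 replicate 1, where NDRG1, KDM3A, and MXI1 turned slightly above 0.

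Within each line, 1 culture was the highest for most of these targets. OVCAR5 replicate 1 was the highest OVCAR5 library for 7 of the 8 targets (87.5%), where it was the highest for 31.0% of all genes tested, and OVCAR5 replicate 3 was the lowest for 7, against 30.8% of all genes. OVCAR5R replicate 2 was the highest OVCAR5R library for 8 of 8, against 33.2% of all genes, and the lowest place was split evenly between the other two. OVCAR5R replicate 2 was also the highest for 26 of all 38 listed genes tested (68.4%), and it was the highest for 44.4% of the 36 other HIF pathway genes. With quantile normalization, OVCAR5 replicate 1 was the highest of its line for 6 of the 8 targets, and OVCAR5R replicate 2 for 8 of 8. As a median over the 8 genes relative to the OVCAR5 mean, the log2 signal was 0.41, 0.03, and -0.38 in OVCAR5 replicates 1 to 3 and -0.34, 0.05, and -0.31 in OVCAR5R replicates 1 to 3, while the median over all genes stayed within -0.01 and 0.01. The medians of OVCAR5R replicate 2 and OVCAR5 replicate 2 were thus close, while single genes such as VEGFA and ADM differed between these 2 libraries.

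**Figure D4:**
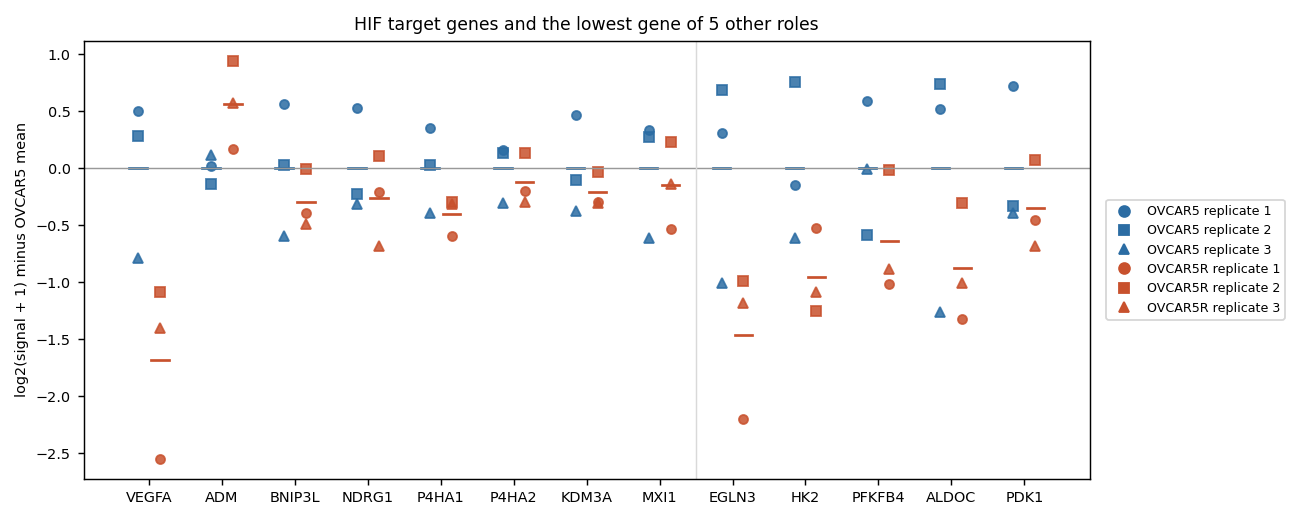
The 8 tested HIF target genes (left) and the gene with the lowest fold change of 5 other roles (right), as log2(signal + 1) minus the OVCAR5 mean; marks are single libraries and short lines are the mean of each line. OVCAR5 replicate 1 tops its line for 7 of the 8 targets, OVCAR5R replicate 2 tops its line for 8 of 8, and VEGFA, with a mean log2 fold change of -1.68, and ADM, at 0.56, are the targets without overlap.

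Other genes of the HIF pathway also went both ways. Of 43 symbols listed, some are older names of genes also listed, and 36 were tested. By sign, 23 log2 fold changes were below 0 and 13 above, with a median of -0.10. Of these 36, 0 had an adjusted p under 0.05, and 3 lower (8.33%, against 6.25% of all genes) and 4 higher (11.1%, against 4.14%) had an unadjusted p under 0.05. BHLHE41, a transcriptional repressor of the circadian clock, had the lowest adjusted p of the pathway genes at 0.179. Its signal was 20.9, 15.8, and 10.8 in OVCAR5 and 1.06, 4.71, and 3.26 in OVCAR5R, a log2 fold change of -2.15 (SE 0.43) with no overlap. ARNT2, a paralog of ARNT, was at 18.4, 5.18, and 5.98 in OVCAR5 and 38.1, 33.5, and 22.0 in OVCAR5R, a log2 fold change of 1.74 (SE 0.45, adjusted p = 0.293). Without OVCAR5 replicate 2 the log2 fold changes of these 2 genes were -2.13 and 1.43. LOXL2, a lysyl oxidase, was at 151, 32.3, and 168 in OVCAR5 and 214, 397, and 280 in OVCAR5R. It was lowest in OVCAR5 replicate 2, and its log2 fold change of 1.60 became 0.85 without that library. STC2, a secreted glycoprotein, likewise had a log2 fold change of 1.02 that became 0.52. INSIG2, KDM4C, and HILPDA had libraries that did not overlap, lower in OVCAR5R, at log2 fold changes of only -0.19, -0.32, and -0.22.

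Of 34 other glycolysis and pyruvate genes, 24 were tested, 0 had an adjusted p under 0.05, and 1 lower (4.17%, against 6.25% of all genes) and 1 higher (4.17%, against 4.14%) had an unadjusted p under 0.05. TIGAR, a phosphatase that lowers fructose 2,6-bisphosphate, was at 11.0, 14.5, and 13.8 in OVCAR5 and 22.7, 18.7, and 21.0 in OVCAR5R. There was no overlap, and the log2 fold change was 0.64 (SE 0.22, adjusted p = 0.388), and 0.71 without OVCAR5 replicate 2. PDP2, the phosphatase that undoes the work of the pyruvate dehydrogenase kinases, was at 24.7, 21.4, and 24.7 in OVCAR5 and 17.6, 17.2, and 9.86 in OVCAR5R. Its log2 fold change was -0.67 (SE 0.27, adjusted p = 0.449), and the 82 other tested genes within 5 Mb on chromosome 16 had a median of -0.49. PGAM5, a mitochondrial phosphatase of the phosphoglycerate mutase family, had a log2 fold change of 0.36 with no overlap.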

How the data were processed

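RNA-seq values of 3 OVCAR5 and 3 OVCAR5R cultures were analyzed from a table deposited by the authors, with 12309 rows by gene symbol, of which 1 identical copy was dropped. The deposited signal is normalized and linear, and the study's methods state quartile normalization. The submitters' processing notes name hg38. The aligner, the counter, and the use of strand are not given in the sources used here. Between 62.5% and 66.8% of values in a library were whole multiples of its smallest step (tolerance 0.01), so the values are scaled read estimates and not counts, and no count test was used.

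Values were taken as log2(signal + 1), which understates fold changes of low genes. Genes at 1 or more in 3 or more libraries were fitted in R (version 4.3.3) with limma (version 3.58.1; lmFit, eBayes with trend, two-sided), without covariates, and p-values were adjusted by the Benjamini-Hochberg method over all 11766 genes. A 12-pair family of ratios of related enzymes had exact permutation tests. The script was tested on simulated data. p-values measure the spread between these cultures, which may be technical. Depth differed between lines, and 3 libraries per line limit precision.

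The listed genes, the role lists, and the tests were chosen with earlier results of these data known. Values in every library are given for listed genes with an unadjusted p under 0.05, with no overlap of the libraries, or with the highest or lowest fold change of a role, and for LDHA and LDHB, which were added after their values were seen. Of the other pathway genes, up to 4 highest and 4 lowest per list without overlap are named, except for 2 genes that are not reported here. Positions, exon lengths, and pseudogenes came from GENCODE release 29 on GRCh38, where 99.4% of symbols tested were found. Neighbors were other tested genes, without those of the pathways. Alternatives were a pseudocount of 0.1, other filters, quantile normalization, limma without trend, voom on estimated reads, a replicate block, and each library left out. Plots used Python (version 3.11.15) and matplotlib (version 3.10.9).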

Additional observations from a re-analysis of the deposited data

How the results depend on the processing

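No listed gene had an adjusted p under 0.05 under any of the 13 alternatives run, where 3 to 7 were lower and 0 or 1 higher at an unadjusted p under 0.05. Over the whole table the 14 calls became 5 with a replicate block (1305 genes with an unadjusted p under 0.05) and 0 with voom on estimated reads (1182 genes), and ranged from 0 without OVCAR5R replicate 3 (858 genes) to 24 without OVCAR5 replicate 2. Of the listed genes, the 1 higher at an unadjusted p became 0 without the variance trend and with the replicate block, and the 1 higher without overlap became 2 with quantile normalization. With 1 library left out, the listed genes numbered 3 to 7 lower and 0 to 1 higher at an unadjusted p, and 6 to 15 lower and 1 to 4 higher without overlap. The count of 15 came without OVCAR5 replicate 3 or OVCAR5R replicate 2, where 16.3% and 12.9% of all genes were lower without overlap. The other pathway genes numbered 3 to 6 lower and 3 to 7 higher at an unadjusted p with 1 library left out. The cause of these moves was not tested.

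The median log2 fold change of lower glycolysis was 0.033 with quantile normalization and -0.23 to -0.028 with 1 library left out, and that of the lactate and pyruvate genes was -0.38 to 0.0097. With quantile normalization the log2 fold change changed sign for GAPDH (0.13), TPI1 (0.026), and PKM (0.16), while the median of all genes moved by at most 0.05. With 1 library left out, the log2 fold change changed sign for PGM1 (-0.17 to 0.051), PFKM (-0.13 to 0.15), PFKP (-0.39 to 0.038), PGAM1 (-0.067 to 0.089), ENO1 (-0.074 to 0.16), EPAS1 (-0.31 to 0.27), NDRG1 (-0.44 to 0.0064), KDM3A (-0.39 to 0.028), MXI1 (-0.45 to 0.047), PFKFB2 (-0.19 to 0.24), ENO2 (-0.086 to 0.53), PDK1 (-0.56 to 0.0097), and PDK3 (-0.065 to 0.27), and the difference in log2 ratio changed sign for PFKP to PFKL (-0.13 to 0.56), PFKFB4 to PFKFB3 (-0.56 to 0.24), ALDOC to ALDOA (-0.84 to 0.24), ENO2 to ENO1 (-0.19 to 0.44), and LDHB to LDHA (-0.24 to 1.36). The other genes and ratios reported kept their sign under every alternative run for them. Whether the replicate numbers pair the samples is not known. The correlations of deviations of same-numbered libraries were -0.004, 0.176, and -0.119, and those of other libraries of the 2 lines were -0.193 to 0.251. So few libraries cannot decide it. With the replicate block, 0 listed genes had an adjusted p under 0.05, as in the main fit. Quantile normalization of the highest library of the HIF targets was chosen after seeing the data.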
